A study of Homo sapiens with 8 samples.

Results

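The transforming growth factor beta (TGF-beta) ligands, receptors and SMAD proteins were examined at their promoter windows in SiHa cells, an established line of cervical squamous carcinoma. The windows taken were all those listed under TGFB1, TGFB2, TGFB3, TGFBR1, TGFBR2, SMAD2, SMAD3, SMAD4, SMAD6 or SMAD7. They came to 10 windows of 7 genes, out of 38157 promoter windows in all, and TGFB2, TGFB3 and SMAD4 were not analysed here. SMAD2, SMAD6, SMAD7 and TGFBR2 had 1 window each, and TGFB1, TGFBR1 and SMAD3 had 1 window on the strand of the gene and another on the opposite strand. The 10 windows passed the filter on low reads, as 36440 windows did, and each held 73 to 168 reads over the 4 input libraries.

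Cells were placed in a transwell, where they can crawl through a porous membrane, and after 10 h the migrated and the non-migrated fractions were scraped off separately. From each fraction a chromatin immunoprecipitation (ChIP) library against trimethylated lysine 9 of histone H3 (H3K9me3) and an input library without antibody were sequenced. The 4 groups were thus H3K9me3 of migrated cells, H3K9me3 of non-migrated cells, input of migrated cells and input of non-migrated cells, all without any drug or genetic change named in the labels, with n = 2 each from 2 paired replicate sets. SiHa stands here as a single cell line, and set 1 was made with another library kit and had many duplicate reads removed, so that the kit differed between the sets and not between the fractions.

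TGF-beta ligands are secreted in a latent form and, once released, bring together the type II receptor TGFBR2 and the type I receptor TGFBR1 at the cell surface. TGFBR1 then phosphorylates SMAD2 and SMAD3, which enter the nucleus with SMAD4 and act on target genes, while SMAD6 and SMAD7 are inhibitory SMADs whose own transcription responds to the pathway. In epithelial cells this pathway is known for slowing the cell cycle and, in tumours, for driving the change to a motile, mesenchymal state. H3K9me3 is a mark of heterochromatin and of silenced genes, written by enzymes such as SUV39H1 and SETDB1.

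Each library held 88028 to 1729061 reads in windows, and the lowest was the H3K9me3 library of migrated cells in set 1, where the median window had 1 read and 30.5% of windows had none. The median window had 3 reads in the H3K9me3 library of non-migrated cells in set 1, against 17 and 22 in the set 2 H3K9me3 libraries of migrated and non-migrated cells. Below, the expected reads of a window are its input reads scaled by the relative size of the H3K9me3 and input libraries of the same fraction and set. These sizes were corrected by a trimmed mean over windows, which sets the zero of the scale. A log2 value of H3K9me3 over input is on the same scale, with 0.5 reads added to each count, and a window is called lower or enriched at a Benjamini-Hochberg adjusted p under 0.05 over the 36440 windows tested. The median of all windows on this scale was -0.35. The fit lets H3K9me3 over input differ between the 2 sets. The SE and p of a log2 value of H3K9me3 over input therefore leave out disagreement between the sets that both fractions share. In what follows, n = 2 sets gives the number of sets, and the reads of each set show how far they disagreed.

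The promoters of SMAD7, SMAD6, TGFB1 and SMAD2 are shown because these windows range from no H3K9me3 read at all to no call, and because their content of the dinucleotide CG is returned to below. Each is 250 bases before to 50 bases after a RefSeq start in GRCh38.p14, written 5′ to 3′ on the strand of the gene with CG in capitals. Their place relative to the hg19 windows was not checked.
SMAD7, the promoter numbered 1 of 3, chr18:48950916-48951215, minus strand: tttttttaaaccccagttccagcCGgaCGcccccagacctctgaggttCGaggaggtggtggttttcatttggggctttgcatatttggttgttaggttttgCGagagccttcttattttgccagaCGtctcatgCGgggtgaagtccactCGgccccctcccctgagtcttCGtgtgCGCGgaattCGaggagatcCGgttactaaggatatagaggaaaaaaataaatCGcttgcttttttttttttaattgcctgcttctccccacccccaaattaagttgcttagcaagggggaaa
SMAD6, chr15:66701986-66702285, plus strand: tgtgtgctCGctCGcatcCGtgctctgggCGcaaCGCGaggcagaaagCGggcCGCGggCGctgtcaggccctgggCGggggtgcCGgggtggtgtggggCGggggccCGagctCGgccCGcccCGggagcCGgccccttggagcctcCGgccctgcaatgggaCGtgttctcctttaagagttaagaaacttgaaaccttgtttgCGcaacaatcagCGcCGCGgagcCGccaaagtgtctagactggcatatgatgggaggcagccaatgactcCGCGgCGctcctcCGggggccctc
TGFB1, chr19:41353873-41354172, minus strand: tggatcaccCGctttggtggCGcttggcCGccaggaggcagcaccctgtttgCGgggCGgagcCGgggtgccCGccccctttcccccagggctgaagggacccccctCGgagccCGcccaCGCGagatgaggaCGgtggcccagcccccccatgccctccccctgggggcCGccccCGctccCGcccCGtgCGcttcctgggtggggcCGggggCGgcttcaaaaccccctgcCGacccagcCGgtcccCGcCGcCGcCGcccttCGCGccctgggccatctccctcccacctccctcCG
SMAD2, the promoter numbered 1 of 2, chr18:47930823-47931122, minus strand: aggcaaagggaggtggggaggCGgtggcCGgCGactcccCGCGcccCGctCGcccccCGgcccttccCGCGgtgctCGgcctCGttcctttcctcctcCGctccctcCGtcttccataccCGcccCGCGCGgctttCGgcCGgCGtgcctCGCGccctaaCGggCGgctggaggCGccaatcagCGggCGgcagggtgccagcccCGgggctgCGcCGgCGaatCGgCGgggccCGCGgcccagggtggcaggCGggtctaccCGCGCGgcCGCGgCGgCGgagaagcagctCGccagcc
CG occurred 13 times in the SMAD7 sequence, 29 times in that of SMAD6, 28 times in that of TGFB1 and 45 times in that of SMAD2, against a median of 14 over 35116 RefSeq promoters. The comparisons by CG below use the richest promoter of each gene. For SMAD7 and SMAD2 this is the promoter numbered 2, with 17 and 51 CG, and not the one shown.

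No window of the family was enriched for H3K9me3 in the mean of both fractions, and 6 of 10 were lower than expected from input by limma's adjusted p. Of all windows tested, 35.2% were lower and 15.8% were enriched. The windows called lower were those of SMAD7, SMAD6, TGFBR2, TGFB1 and TGFBR1 on the gene strand and the opposite-strand window of SMAD3, and the windows not called were those of SMAD2, SMAD3 on its own strand, and TGFB1 and TGFBR1 on the opposite strand. The median log2 value was -1.21 over the 10 windows and -1.39 over the 7 on the gene strand, beside -0.35 over all windows. Gene-strand windows matched to RefSeq promoters had medians of -0.81, -1.03 and -1.04 at 14 to 25, 26 to 35 and 36 to 69 CG. Of those windows 46.7%, 52.9% and 52.2% were lower. The CG count is that of the gene's richest promoter, and the 7 family genes fall in these ranges. The order of the estimates ran from SMAD7 at -3.63 to the opposite-strand window of TGFBR1 at -0.55, and these stood at the 0.692 and 44.6 percentiles of all windows. In that order each pair of neighbours stood closer than the sum of their standard errors, which lay at 0.36 to 0.54.

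**Figure D1:**
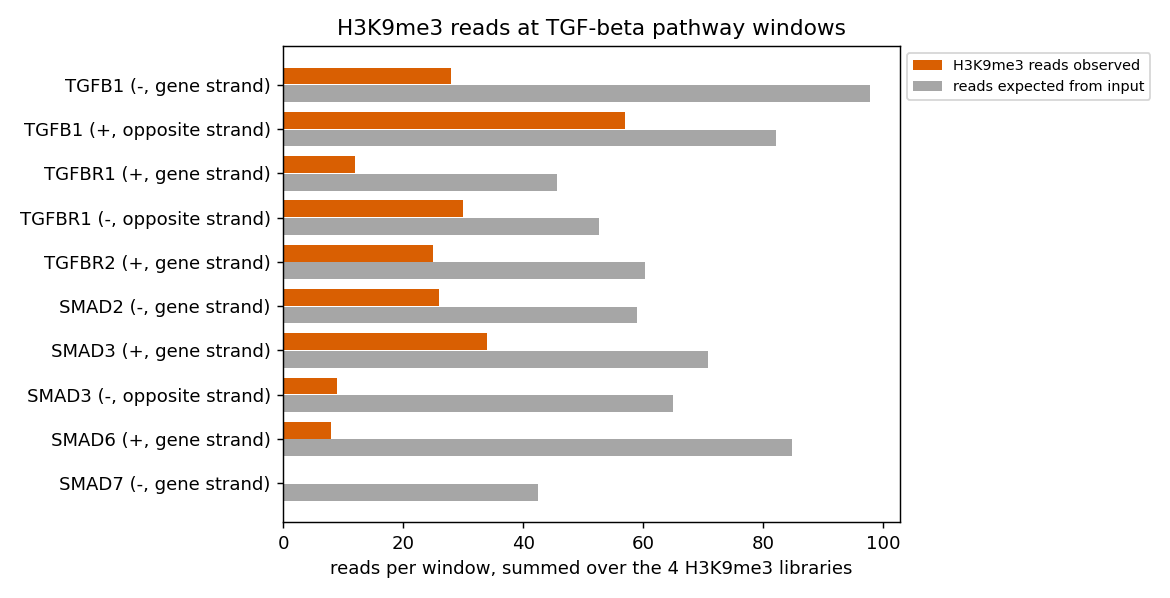
Horizontal bars give reads per window summed over the 4 H3K9me3 libraries, observed (orange) and expected from input (grey), for the 10 windows, with the strand of each window relative to its gene. Observed reads lay below expected reads in each window, from 0 against 42.5 at SMAD7 to 57 against 82.1 at the opposite-strand window of TGFB1.

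SMAD7 recruits ubiquitin ligases to the activated receptor and so shuts the pathway off. Its window (ENSG00000101665, hg19 chr18:46476981-46479081, minus strand) had 0 and 0 H3K9me3 reads in sets 1 and 2 of migrated cells and 0 and 0 in those of non-migrated cells. The input libraries of migrated cells had 10 and 24 reads there and those of non-migrated cells had 5 and 34. All 4 H3K9me3 libraries were therefore empty where input was present, in migrated and in non-migrated cells. With 42.5 reads expected over the 4 libraries, a floor of 3 reads over the group puts H3K9me3 at least 14.2-fold lower, or at most 7.06% of expected, by counting error only. The fitted log2 value was -3.63 ± 0.51 (SE, n = 2 sets, limma adjusted p = 8.97e-07), and it depends on the 0.5 reads added. With 2 reads added to each count it was -1.80. By a quasi-Poisson model of the reads the adjusted p was 0.00195. Only 20 of the windows tested had no H3K9me3 read in any of the 4 libraries, and 17 of these held at least the 73 input reads of SMAD7, as 31245 windows did. The window was called lower without each other library in turn, and without the non-migrated input of set 2 it had too few reads to be tested.

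SMAD6, the other inhibitory SMAD and best known for restraining the bone morphogenetic protein (BMP) branch, was nearly as low. Its window (ENSG00000137834, hg19 chr15:66992670-66994770, plus strand) had 0 and 4 H3K9me3 reads in migrated cells, where 2.12 and 30.2 were expected, and 2 and 2 in non-migrated cells, where 5.01 and 47.5 were expected. Every library lay below its expectation, with the widest gap in set 2 of non-migrated cells. Summed over libraries this was 8 reads, or 9.43% of expected, and the log2 value was -2.58 ± 0.47 (SE, n = 2 sets, limma adjusted p = 3.36e-05). The call held without each library in turn, although the value was -1.62 without the migrated H3K9me3 library of set 1, -3.22 without that of set 2 and -1.88 without the non-migrated H3K9me3 library of set 2.

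TGFB1, the ligand of the family with a window, was low at its gene-strand window and not called at the neighbouring window on the other strand. On the gene strand (ENSG00000105329, hg19 chr19:41859731-41861831, minus) there were 0 and 11 H3K9me3 reads in migrated cells against 3.63 and 33.8 expected, and 1 and 16 in non-migrated cells against 3.64 and 56.9 expected. Observed reads were below expected reads in each of the 4 libraries, and the 28 reads in all were 28.6% of expected. The log2 value was -2.0 ± 0.42 (SE, n = 2 sets, limma adjusted p = 0.000169), and without the non-migrated input library of set 2 it was -1.33 with an adjusted p of 0.0577 by limma. The opposite-strand window (chr19:41854816-41856916, plus), whose start lies 3015 bases away, had 4 and 15 reads in migrated cells and 2 and 36 in non-migrated cells, which came to 69.4% of expected. Its log2 value was -0.62 ± 0.36 (SE, n = 2 sets, limma adjusted p = 0.152). With the set 1 H3K9me3 library of migrated cells or the set 2 one of non-migrated cells left out it passed the threshold at -0.97 and -1.23, and with the set 2 H3K9me3 library of migrated cells or the set 1 one of non-migrated cells left out it was 0.06 and 0.24.

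Both receptor genes were called lower on the gene strand, and neither call held without every library. TGFBR2, which binds the ligand first, had 2 and 11 H3K9me3 reads in migrated cells and 1 and 11 in non-migrated cells (ENSG00000163513, hg19 chr3:30645994-30648094, plus strand). The expected reads were 2.42 and 26.7 in migrated cells and 4.56 and 26.6 in non-migrated cells, so the set 2 libraries of both fractions were equal and low. Its sum was 41.5% of expected and its log2 value -1.02 ± 0.42 (SE, n = 2 sets, limma adjusted p = 0.0418), at the 33.6 percentile of all windows. TGFBR1, the kinase that phosphorylates the SMADs, had 3 and 3 reads in migrated cells and 1 and 5 in non-migrated cells on its own strand (ENSG00000106799, hg19 chr9:101864320-101866420, plus). Against 2.72 and 20.2 expected in migrated cells and 4.10 and 18.7 in non-migrated cells, only the migrated library of set 1 reached its expectation. The sum was 26.3% of expected and the log2 value -1.39 ± 0.45 (SE, n = 2 sets, limma adjusted p = 0.0103). The opposite-strand window of TGFBR1 (chr9:101908148-101910248, minus), 41928 bases away, had 2 and 11 reads in migrated cells and 7 and 10 in non-migrated cells, at 57.0% of expected, and was not called (log2 -0.55 ± 0.38, SE, n = 2 sets, limma adjusted p = 0.23). Its value was 0.01 without the migrated H3K9me3 library of set 1.
Without the migrated H3K9me3 library of set 2, the migrated inputs of sets 1 and 2, the non-migrated H3K9me3 library of set 1 or the non-migrated inputs of sets 1 and 2, the gene-strand values were, in this order, -0.79, -1.46, -1.07, -0.61, -1.34 and -1.17 for TGFBR1 and -0.71, -1.16, -0.67, -0.54, -0.94 and -0.87 for TGFBR2, and none of these passed the threshold.

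SMAD2 and SMAD3, the SMADs that the receptor phosphorylates, were not called at their gene-strand windows. The place of these windows relative to the RefSeq promoters was not checked. SMAD2 (ENSG00000175387, hg19 chr18:45457415-45459515, minus strand) had 3 and 4 H3K9me3 reads in migrated cells, where 1.97 and 18.4 were expected, and 4 and 15 in non-migrated cells, where 4.10 and 34.5 were expected. Set 1 stood near its expectation in both fractions and set 2 below it in both. The 26 reads in all were 44.1% of expected, and the log2 value was -0.65 ± 0.41 (SE, n = 2 sets, limma adjusted p = 0.193). It was -1.08 and past the threshold without the non-migrated H3K9me3 library of set 2, and 0.05 without that of set 1. SMAD3 on its own strand (ENSG00000166949, hg19 chr15:67354101-67356201, plus) had 2 and 14 reads in migrated cells and 1 and 17 in non-migrated cells, at 48.0% of expected, with a log2 value of -0.93 ± 0.41 (SE, n = 2 sets, limma adjusted p = 0.0547). It passed at -1.02 with the set 1 H3K9me3 library of migrated cells left out and at -1.28 with the set 2 one of non-migrated cells left out. It also passed at -1.03 with median-of-ratios size factors (limma adjusted p = 0.0341). These gave 7 lower windows in the family and 13680 among all 36440 windows.

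The opposite-strand window of SMAD3 (chr15:67439177-67441277, minus), 83176 bases downstream of the start of the gene-strand window, was far lower than that window. It had 1 and 0 H3K9me3 reads in migrated cells, against 3.78 and 26.1 expected, and 0 and 8 in non-migrated cells, against 6.38 and 28.8 expected. Of 9 reads in all, 8 came from 1 library, the non-migrated one of set 2. The sum was 13.8% of expected, and the log2 value was -3.05 ± 0.54 (SE, n = 2 sets, limma adjusted p = 2.17e-05). Left-out H3K9me3 libraries moved it to -4.42 (migrated, set 1), -1.60 (migrated, set 2), -1.43 (non-migrated, set 1) and -4.68 (non-migrated, set 2), each still called lower. The opposite-strand window was below the gene-strand window in 4 of 4 fraction-and-set pairs for SMAD3, whereas it was above it in 3 of 4 pairs for TGFB1 and in 3 of 4 for TGFBR1.

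**Figure D2:**
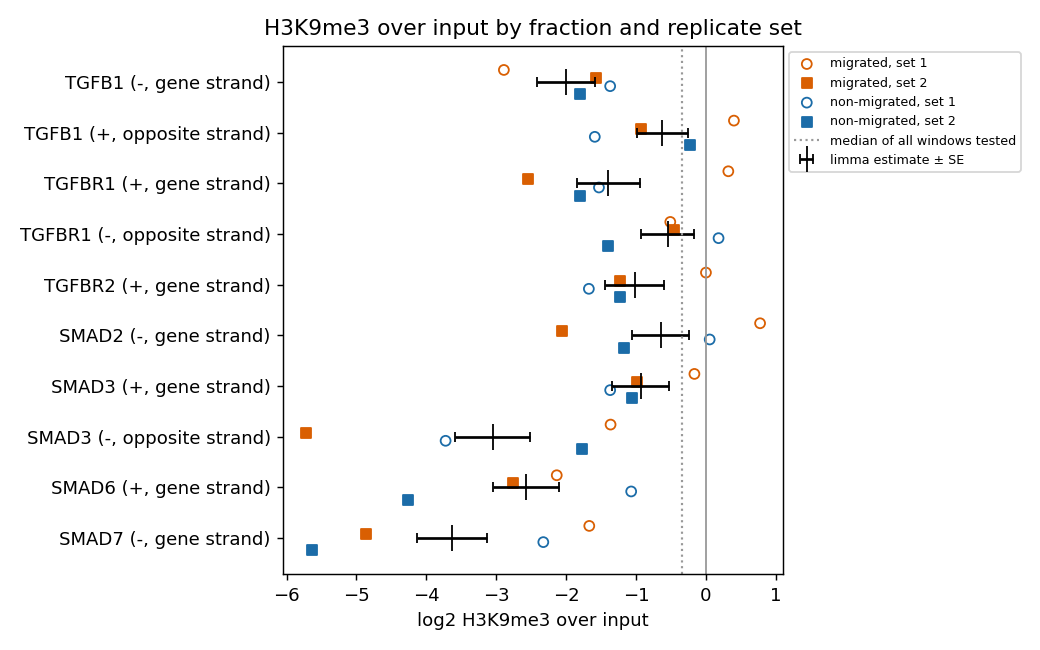
Points give log2 H3K9me3 over input of each window in migrated (orange) and non-migrated (blue) cells, open for set 1 and filled for set 2, and black bars give the limma estimate ± SE. The solid line marks 0 and the dotted line the median of all windows at -0.35. The 4 points of TGFB1 and SMAD3 on the gene strand, of the opposite-strand window of SMAD3, of SMAD6 and of SMAD7 lie below 0, and at SMAD2 the points of set 1 lie above 0 and those of set 2 below it.

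Summed over the 10 windows, H3K9me3 reads were 17 of 27.7 expected in set 1 and 73 of 242 expected in set 2 of migrated cells, and 19 of 47.4 and 120 of 343 in those of non-migrated cells. This is 61.4% (95% exact interval 35.0 to 101) and 30.1% (23.1 to 38.7) of expected in migrated cells, and 40.1% (23.2 to 65.8) and 35.0% (28.4 to 42.8) in non-migrated cells. The intervals cover counting error only, and all but that of set 1 of migrated cells, the shallowest library, lay below 100% throughout. Over the 7 gene-strand windows the shares were 58.5% and 27.3% in migrated cells and 36.6% and 27.0% in non-migrated cells.

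**Figure D3:**
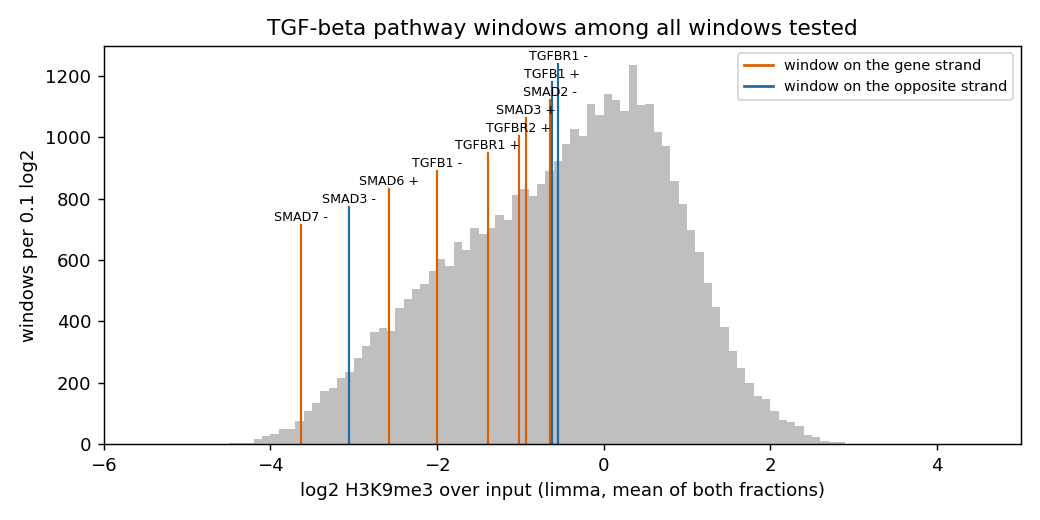
The histogram counts all tested windows per 0.1 log2 of H3K9me3 over input (limma, mean of both fractions), with vertical lines for the family's windows on the gene strand (orange) and on the opposite strand (blue). SMAD7 at -3.63 and the opposite-strand window of SMAD3 at -3.05 lie in the lower tail, and all 10 windows lie left of the median of all windows at -0.35.

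The level of the scale bears on these calls. Scaling the libraries with the constants in the deposited values moved the median of all windows by -0.95 and called 19685 windows lower and 340 enriched, against 12839 and 5757 here, and 10 of the 10 family windows were then lower. Scaling to 180 promoters of ribosomal protein and oxidative phosphorylation genes, chosen after seeing the data, moved it by 0.89 and called 6192 lower and 14708 enriched. Then 4 family windows stayed past the threshold as lower (SMAD7, SMAD6, the opposite-strand window of SMAD3 and TGFB1 on the gene strand), TGFBR1 and TGFBR2 on the gene strand stood at -0.48 and -0.12, and SMAD2 and the opposite-strand windows of TGFB1 and TGFBR1 were above 0, at 0.26, 0.29 and 0.33. A call of lower is therefore relative to a chosen set of promoters, and the percentiles given above place the windows among all windows.

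The tested windows around each gene within 250 kb of the gene-strand start were also compared. SMAD6 had 6 neighbouring windows with a median of -1.0, of which 3 were called lower. SNAPC5, a subunit of a complex that activates small nuclear RNA genes, stood at -2.48 ± 0.42 (SE, n = 2 sets, limma adjusted p = 1.25e-05), which differed from the -2.58 of SMAD6 by less than the SE of either. TGFB1 lay in a stretch where 8 of 16 windows were lower, with a median of -1.08, and 4 of them were below TGFB1, such as CCDC97 at -2.89 ± 0.44 (SE, n = 2 sets, limma adjusted p = 3.06e-06). TGFBR1 had 8 neighbours with a median of -0.82 and 4 called lower, and SMAD3 had 6 with a median of -0.57 and 2 called lower. SMAD2 and TGFBR2 each had 2 neighbours, none called, with medians of 0.09 and 0.28. For SMAD7 no other window that passed the filter lay within that distance.

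Windows of genes with CG-richer promoters had less H3K9me3 across genes, as a description over windows on the gene strand matched to RefSeq promoters. The richest promoter of a gene need not lie in its window, and this was not checked. Among windows whose gene had at most 13 CG in its richest promoter, the median log2 value was -0.02 and 20.6% were lower, against -0.81 and 46.7% at 14 to 25 CG, -1.03 and 52.9% at 26 to 35, and -1.04 and 52.2% at 36 to 69. SMAD7 and TGFBR2, with 17 and 23 CG in their richest promoters, fell in the 14 to 25 range, TGFB1 and SMAD6 in the 26 to 35 range, and TGFBR1, SMAD2 and SMAD3 in the highest. Within the family the lowest window, SMAD7, was thus not that of the gene with the promoter richest in CG.

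The promoters were also searched, on both strands, for GTCTAGAC, the palindromic SMAD-binding element, and for CAGACA, the core of the CAGA box. Both hold the letters AGAC. GTCTAGAC was found in 1 of the 22 RefSeq promoters of the 7 genes, that of SMAD6, against 0.202% of all promoters of this length. The stretch of the SMAD6 promoter that holds it, with the motif in capitals, reads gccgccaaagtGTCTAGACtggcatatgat. CAGACA was found in 3 of the 22, which belong to TGFBR1 and SMAD3, against 16.9% of all promoters. These are matches of letters, and binding was not measured.

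Migrated and non-migrated cells were compared next, by the difference in log2 H3K9me3 over input between the fractions. No family window passed the threshold, and no window did among the 36440 tested (0% called in each direction by limma, with 1282 windows at an unadjusted p under 0.05, and 0 called by a quasi-Poisson model of the reads, with 1633). Of the 9 family windows with H3K9me3 reads, 0 had an unadjusted p under 0.05 by either model. The differences ran from -0.99 to 0.46 with standard errors of 0.60 to 1.07, 5 were positive and 4 negative, and the median was 0.31 beside -0.02 for all windows. At SMAD7 both fractions had no reads, and no difference is given.

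The sets disagreed on the direction in 7 of the 9 windows. The gene-strand windows of TGFBR2 and SMAD3 were higher in migrated cells in both sets, by 1.68 and 0.001 for TGFBR2 and by 1.21 and 0.07 for SMAD3 in sets 1 and 2, so set 2 showed nearly none of it. The limma differences were 0.46 (95% interval -1.07 to 2.0) for TGFBR2 and 0.33 (-1.06 to 1.72) for SMAD3. SMAD6 differed by 0.39 (-1.44 to 2.21), TGFB1 on the gene strand by -0.13 (-1.58 to 1.32) and TGFBR1 on the gene strand by 0.31 (-1.48 to 2.10). SMAD2 differed by -0.17 (-1.75 to 1.42), and the opposite-strand windows of TGFB1 and TGFBR1 by -0.15 (-1.37 to 1.06) and 0.32 (-1.17 to 1.81). These intervals reach past 1 log2 unit on both sides for the 8 windows, so changes of about that size could not be told from none at this depth.

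The opposite-strand window of SMAD3 differed by -0.99 (95% interval -3.17 to 1.18), with 2.36 in set 1 and -3.94 in set 2. In set 2 it had 0 reads in migrated cells and 8 in non-migrated cells, and in set 1 it had 1 in migrated cells and 0 in non-migrated cells. With either set 1 H3K9me3 library left out, the difference rested on the 0 and 8 reads of set 2. It was -3.87 when the migrated one was dropped and -3.85 when the non-migrated one was dropped. Both values thus come from the same reads and count as a single observation. With either set 2 H3K9me3 library left out, the difference was 2.27. Each such run leaves 1 H3K9me3 library in a fraction, so no call is drawn from it.

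**Figure D4:**
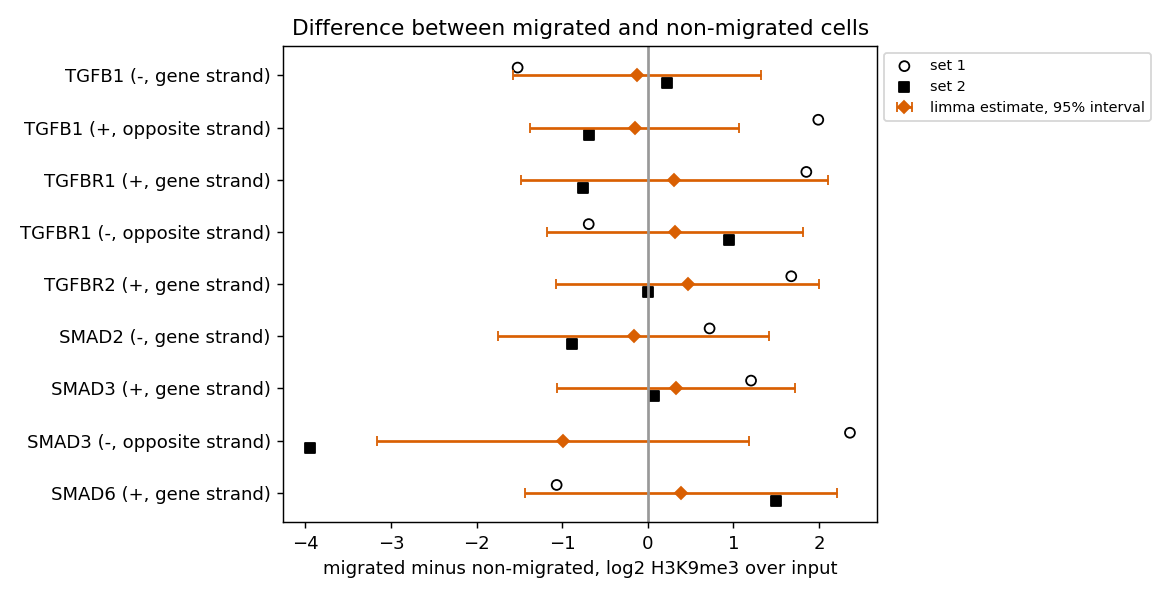
Diamonds give the limma estimate of migrated minus non-migrated log2 H3K9me3 over input for 9 windows, with 95% intervals, and points give set 1 (open circles) and set 2 (filled squares). The interval of each window crosses 0, and sets 1 and 2 fall on opposite sides of 0 in 7 of the 9 windows.

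Taken over the 10 windows, the summed H3K9me3 over input of migrated minus non-migrated cells was 0.62 (log2, counting interval -0.39 to 1.62) in set 1 and -0.21 (-0.68 to 0.25) in set 2. Tested in each fraction on its own, 4 windows were lower in migrated cells, where 28.4% of all windows were, and 4 were lower in non-migrated cells, where 23.6% were. These were the windows of SMAD7, SMAD6, TGFB1 on the gene strand and SMAD3 on the opposite strand in both fractions. Their log2 values were -3.19, -2.38, -2.06 and -3.55 in migrated cells and -4.07, -2.77, -1.93 and -2.56 in non-migrated cells. Enriched windows numbered 0 of 10 in each fraction, against 12.8% of all windows in migrated and 8.39% in non-migrated cells.

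Other genes of the TGF-beta superfamily pathway were described from a list of 108, of which 87 had a window that was tested. Each gene was represented by its window with the most reads over all libraries, H3K9me3 and input together. The choice thus used the H3K9me3 reads themselves and can favour enriched windows, which bears on the counts and medians below. In the mean of both fractions 46 were lower (52.9%), 8 were enriched (9.20%) and 33 were not called, and the median was -1.07. Of all windows 35.2% were lower and 15.8% enriched, but those were not chosen by their reads. Gene-strand windows of genes at 14 to 25, 26 to 35 and 36 to 69 CG were lower in 46.7%, 52.9% and 52.2%. Whether the share is particular to the pathway was not tested. With the deposited constants 61 pathway genes were lower and 0 enriched. With the scaling to ribosomal protein and oxidative phosphorylation genes 26 pathway genes were lower and 19 enriched. Between the fractions 0 passed by limma, and 6 had an unadjusted p under 0.05. For 13 of these genes, JUN among them, the window lay on the opposite strand, and for another 20, among them NOG, FOXH1, COL1A2 and BMP3, the strand of the gene was not determined here, so their windows need not be those of their own promoters.

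Of the genes that store and release the latent ligand, 4 of 9 were lower and 0 enriched, with a median of -0.58. LTBP3, which tethers latent TGF-beta to the matrix, stood at -3.03, the integrin subunit ITGAV, which takes part in its release, at -2.85, and the activator thrombospondin, THBS1, at -2.69. Of the other ligands, 10 of 18 were lower and 2 enriched, with a median of -1.08. BMP8B at -3.56, GDF5 at -2.48 and GDF11 at -1.72 were lower, whereas GDF7 had 211 H3K9me3 reads against 89.6 expected and was enriched at 1.23 ± 0.32 (SE, n = 2 sets, limma adjusted p = 0.00164).

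Extracellular antagonists, which bind ligands before they reach a receptor, were lower in 3 of 5 and enriched in 1, with a median of -1.80. FSTL3 at -2.73, FST at -2.05 and NOG at -1.80 were lower. Of the other receptors and co-receptors 5 of 10 were lower and 0 enriched, with BMPR2 at -2.64, AMHR2, the receptor of anti-Müllerian hormone, at -2.23 and BMPR1A at -2.16, and of the BMP-branch SMADs 0 of 2 were called either way.

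Intracellular regulators were lower in 8 of 16 and enriched in 0, with a median of -1.06. SMURF2, a ubiquitin ligase that SMAD7 brings to the receptor, shared the pattern of SMAD7, with 0 H3K9me3 reads in the 4 libraries where 50.8 were expected. By the same floor of 3 reads over the group it was at least 16.9-fold lower (fitted log2 -3.75 ± 0.51, SE, n = 2 sets, limma adjusted p = 6.49e-07). TRIM33, which acts on SMAD4, stood at -2.77 and PMEPA1, an inhibitor induced by the pathway, at -2.57. The transcription factors that work with SMADs were lower in 5 of 9 and enriched in 1, with FOS at -4.09, JUN at -3.09 and FOXH1 at -2.23 lower. RUNX1 was enriched at 1.16 ± 0.30 (SE, n = 2 sets, limma adjusted p = 0.0016), with 153 reads against 59.8 expected.

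Target genes were lower in 11 of 18 and enriched in 4, with a median of -1.24. JUNB had 2 H3K9me3 reads where 120 were expected and stood at -3.98 ± 0.48 (SE, n = 2 sets, limma adjusted p = 1.40e-07), and ID3 and ID1, inhibitors of differentiation, at -3.30 and -2.97. COL1A2, a collagen chain, was enriched at 0.91 ± 0.37 (SE, n = 2 sets, limma adjusted p = 0.0381). Other enriched genes, named after their values were seen, were BMP3 among the ligands and ZEB1, ZEB2 and ID4 among the targets, at 1.54, 1.19, 1.31 and 1.08, with the windows of ZEB1 and ZEB2 on the opposite strand. The genes nearest to the median profile of the family over the 4 fraction-and-set pairs were HMGA2, NOG and GDF11, with root mean square distances of 0.585, 0.617 and 0.656 on the log2 scale. The pairs count equally, and in set 1 these genes had 0 or 1 H3K9me3 read per library, so single reads weigh on the distances.

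**Figure D5:**
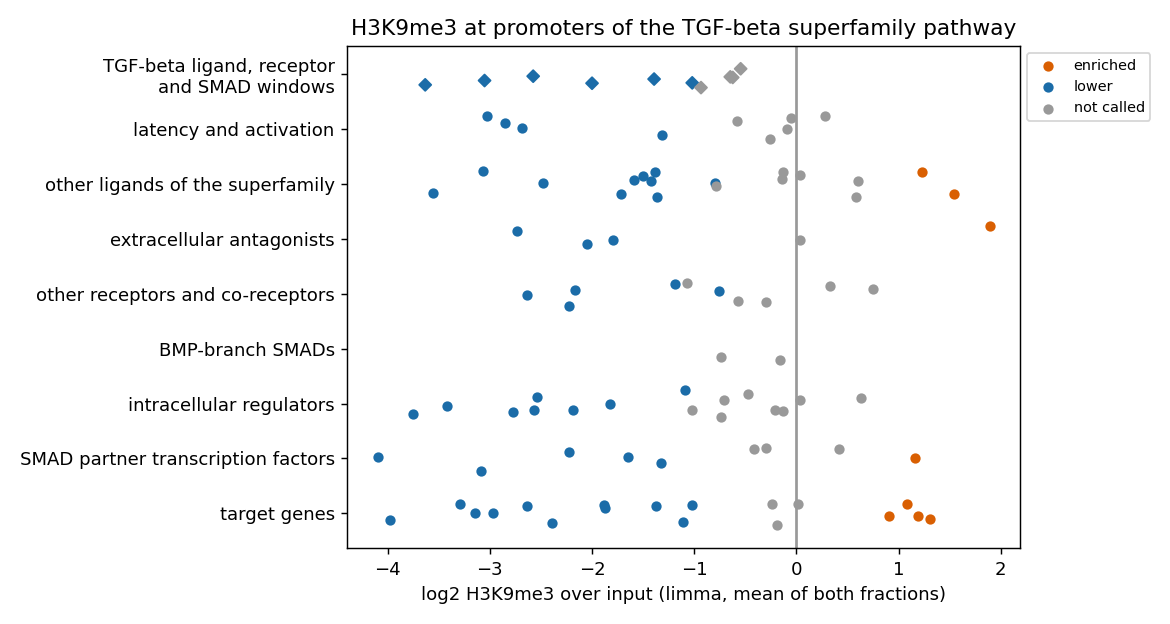
Each point is a window, by log2 H3K9me3 over input (limma, mean of both fractions), with the family's 10 windows in the top row as diamonds and 87 other pathway genes below by role, coloured as enriched (orange), lower (blue) or not called (grey). Enriched points are found among the other ligands, the extracellular antagonists, the SMAD partner transcription factors and the target genes and none among the family's windows.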

How the data were processed

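Promoter windows of 8 libraries were used. Most span 2100 bases, from 2000 bases upstream to 100 downstream of a start, in hg19. Bowtie2 2.2.9, SAMtools 1.3 and FastQC 0.11.5 are named by the submitters' processing notes, without the program that counted reads. The deposited values are log2 values per the file headers, and each proved to be that of a whole number of reads (0.9 for none) shifted by an amount fixed for its library. All values (100%) were whole within 0.01 after the shift was removed, and these recovered reads were analysed. Use of strand in the counting is not stated there.

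Windows with at least 15 reads in all, and in at least 2 libraries a level worth 10 reads in a library of median size, were kept. Libraries were scaled by trimmed means of M values (trims of 30% and 5%), and limma 3.58.1 in R 4.3.3 was fitted with precision weights to log2 of reads plus 0.5, with terms for set, ChIP, set by ChIP, fraction and fraction by ChIP. This left 2 residual and 33.0 prior degrees of freedom, and p-values were adjusted by Benjamini-Hochberg over all windows. The code was tested on simulated data. The labels name set 2 a second biological replicate and the design pairs the sets, so the set was kept as a block. Deviations of the libraries of 1 set were only weakly correlated for H3K9me3 (r = 0.147 over windows) and more so for input (0.469). 1 library (H3K9me3 of migrated cells, set 1) has different replicate numbers in its title and its description, and the title was followed.

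The members, pathway list, roles and motifs were chosen with earlier results of these data known. Pathway genes were named if past the threshold with the same sign in the 4 pairs and at least 20 reads per input library on average, at most 3 per role and direction, and the 3 genes nearest to the family's median profile were named too. The result of 1 gene under this rule is not reported here. Strands, names and promoters come from RefSeq GRCh38.p14, which matched 7 of 7 genes, and no position was converted between builds. Intervals are at 95%. PCR reads are not independent molecules, so intervals and floors cover counting error only.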

Additional observations from a re-analysis of the deposited data

How the results depend on the processing

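SMAD6 and the opposite-strand window of SMAD3 were called lower in the mean of both fractions under every alternative run, SMAD7 was too except without the non-migrated input of set 2, where too few reads were left to test it, and enriched family windows numbered 0 under each of them. With the deposited constants, lower family windows were 10 in the mean and 10 in migrated cells, and enriched pathway genes were 0. Scaled to promoters of ribosomal protein and oxidative phosphorylation genes, chosen after seeing the data, lower family windows were 2 in migrated and 2 in non-migrated cells, and pathway genes were 26 lower and 19 enriched, with SMAD2 at 0.26 and the opposite-strand windows of TGFB1 and TGFBR1 at 0.29 and 0.33. Median-of-ratios size factors added SMAD3 on the gene strand (-1.03), for 7 lower family windows, where 13680 of all 36440 windows were lower. Without precision weights 2 family windows were lower in non-migrated cells, and a quasi-Poisson model gave 5 enriched pathway genes. TGFBR2 missed the threshold with no filter (-0.74), without weights (-1.03) and with 2 reads added to each count (-0.62). Without the replicate block, 8 family windows were lower in the mean (SMAD2 at -1.19 and SMAD3 at -0.94 were added), where 12327 of all 36440 windows were. In that run 5 family windows were lower in migrated and 3 in non-migrated cells, 0 differed between the fractions, and 40 pathway genes were lower and 9 enriched. Differences between the fractions, none past the threshold in any of these, changed sign with the deposited constants (TGFBR2 -0.17, TGFBR1 -0.45 on the gene and -0.84 on the opposite strand, SMAD6 -0.73, SMAD3 -0.30), without weights (opposite-strand TGFB1 0.65), with 2 reads added (SMAD2 0.0744, TGFB1 0.14 on the gene and 0.0871 on the opposite strand) and without the replicate block (TGFBR1 on the gene strand -0.23). The cause was not tested.

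Leaving out each library in turn, with the lone library of a group assumed to vary like the others, gave 2 to 9 lower family windows in the mean, 2 to 5 in migrated and 0 to 7 in non-migrated cells, 0 to 1 between the fractions, and 30 to 43 lower and 4 to 10 enriched pathway genes. The non-migrated input of set 2 gave the 2, 0 and 30 in the mean, in non-migrated cells and in the pathway, and without the migrated input of set 1 the counts were 2 in migrated and 2 in non-migrated cells and 4 enriched pathway genes. Without the migrated H3K9me3 library of set 2, 7 were lower in non-migrated cells, and without the non-migrated input of set 1, 5 pathway genes were enriched. The mean ranged from -1.08 to 0.0493 at SMAD2, -1.23 to 0.24 at opposite-strand TGFB1 and -0.86 to 0.0142 at opposite-strand TGFBR1. The difference ranged from -0.97 to 0.93 at SMAD2, -1.16 to 1.57 at SMAD6, -0.0318 to 1.46 at SMAD3 and -3.87 to 2.27 at its opposite strand, -1.07 to 0.0839 at TGFB1 and -0.64 to 1.92 at its opposite strand, and -0.64 to 1.70 at TGFBR1 and -0.45 to 0.81 at its opposite strand. Depth limits set 1 most, where single reads decide the values. The number of windows called among all windows, in the mean and between the fractions, also moved with the library left out. The changes in the counts above are therefore not a result about the family or the pathway.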
